A study of Arabidopsis thaliana with 109 samples.

Results

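Seedlings of 1 Arabidopsis thaliana line were compared after 30 min and after 5 min of shade light, written low R:FR for its low ratio of red to far-red, as it reaches a plant under or beside green leaves. The line is labelled pif457_PIF7:PIF7:4xMYC, a pif457 mutant that carries PIF7 with 4 MYC tags, written in the label as driven by PIF7's own sequence. All 6 libraries of the comparison, 3 at each time, share the mutant background and the transgene, and no white light library enters the difference. They are 6 of the 109 samples of the series and 6 of its 29 RNA-seq libraries. Whole light-grown seedlings were used, so fewer cells of a type and less transcript per cell cannot be told apart. The line's other 6 RNA-seq libraries, 3 in white light and 3 after 10 min of low R:FR, are given for the course over time. Wild-type and pif457 seedlings in white light and after 30 min, 2 libraries each, come from a separate expression table. The labels do not say that replicates were separate cultures, so p-values measure the spread between these samples, which may be technical. No hour of harvest is given, so the length of shade and the time of day cannot be told apart where the groups differ in both.

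Low R:FR turns the photoreceptor phytochrome B back to its inactive form. Phytochrome B otherwise holds down the phytochrome-interacting factors (PIFs), bHLH proteins that bind the G-box and related elements in promoters. PIF7 is the family member best known for the fast response to shade, in which auxin synthesis in the cotyledons is followed by growth of the hypocotyl. The response also raises genes that restrain it, among them HFR1, PIL1 and PAR1, atypical or non-DNA-binding HLH proteins.

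Of 24589 genes tested, 298 stood higher at 30 min than at 5 min (1.21%) and 89 stood lower (0.362%), 387 in all (1.57%), at an adjusted p under 0.05 (limma, Benjamini-Hochberg). The authors' values are TPM, a relative transcript level scaled by transcript length and library total. A log2 change here is the mean of log2(TPM + 1) at 30 min minus that at 5 min, which understates the fold change of low genes. Among the raised genes 91 changed by at least 2-fold and 19 by at least 4-fold on this scale, against 4 and 0 of the lowered genes. The median change was 0.75 over the raised genes, -0.52 over the lowered genes and 0.04 over all genes tested. After the libraries were centred on their median genes the split was 274 raised and 150 lowered. The lowered count rests on every library, since leaving out 1 of the 6 gave between 37 and 47 lowered genes, while the raised count then lay between 205 and 329. Without regard to the test, the 3 libraries of each time did not overlap in 2717 genes that were higher at 30 min (11.0%) and in 1475 that were lower (6.0%). At an unadjusted p under 0.05, 1866 genes were higher (7.59%) and 981 lower (3.99%), the background for the unadjusted counts given with the gene groups below.

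**Figure D1:**
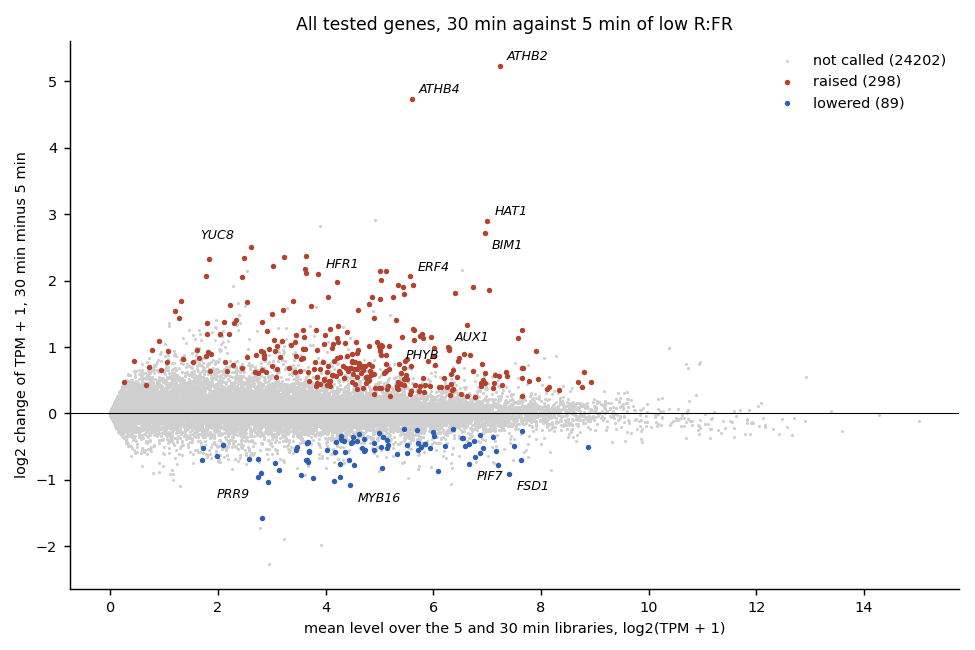
Each point is 1 of 24589 tested genes; the x axis gives its mean level over the 5 and 30 min libraries as log2(TPM + 1) and the y axis its log2 change, 30 min minus 5 min. The 298 raised genes (red) reach a log2 change of 5.23 in ATHB2, while the 89 lowered genes (blue) lie closer to the line at 0.

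Per library, 18098 to 18889 genes reached 1 TPM. Nuclear rRNA and organellar transcripts took 1.84, 1.24 and 1.51% of all TPM at 5 min. At 30 min they took 3.21, 2.19 and 1.98%, above every 5 min library. With these genes removed, 303 genes were raised and 80 lowered. Over genes with a mean of at least 5 TPM, the third 30 min library had the highest median. It was 4.54 on the log2(TPM + 1) scale, against 4.36 to 4.42 in the other 5. All 6 green shoot markers, led by Rubisco small subunit genes, were present, and their summed level was 46500 to 53300 TPM at 30 min and 47100 to 51600 TPM at 5 min. The 9 root markers summed to 878 to 940 TPM at 30 min and 694 to 764 TPM at 5 min, none was at 0 in either group and none passed the test. Their part in the changes below was not tested.

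The PIF transcripts come first, since the line is built on them. PIF7 (AT5G61270) stood at 137, 121 and 122 TPM at 5 min and at 74.5, 70.0 and 78.6 TPM at 30 min. All 30 min libraries lay below all 5 min libraries, and the gene fell (log2 change -0.76, SE 0.09, adjusted p = 0.00152). White light libraries (126 ± 8.71 TPM, SD, n = 3) were at the 5 min level. Reads of the transgene and of the mutant allele cannot be told apart in this value, and transcript does not measure protein. Without the transgene, pif457 seedlings of the separate table held little PIF7 transcript: 1.24 and 0.84 TPM under white light, then 0.35 and 1.47 TPM after 30 min. Wild-type means were 26.7 and 22.5 TPM, below every library of the tagged line. The tables were scaled separately, and the difference in PIF7 level was not tested. PIF4 (AT2G43010), a PIF of warmth and shade responses, stood at 20.2 ± 2.01 TPM at 5 min and 16.1 ± 1.51 TPM at 30 min (SD, n = 3; log2 change -0.31, adjusted p = 0.292). Its close relative PIF5 (AT3G59060) stood at 4.84 ± 0.864 and 3.14 ± 0.0781 TPM (-0.49, adjusted p = 0.329). The name pif457 is read here as mutations in PIF4, PIF5 and PIF7, so the PIF4 and PIF5 values come from mutant genes. In the separate white light libraries PIF4 had a mean of 39.8 TPM in wild type and 11.6 TPM in pif457, and PIF5 37.9 and 3.37 TPM. PHYB (AT2G18790), the gene of phytochrome B itself, rose from 30.0, 29.1 and 30.4 TPM to 48.1, 50.0 and 53.2 TPM (log2 change 0.74, adjusted p = 0.000145). Among the 14 phytochrome, cryptochrome and PIF genes, PHYB was the 1 raised and PIF7 the 1 lowered.

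Shade regulators showed the largest rises of the whole comparison. Of 13 such genes 9 were raised and 1 was lowered, and their median log2 change was 1.93 against 0.04 over all genes. The strongest were HD-Zip II genes, which encode homeodomain-leucine zipper repressors known as early shade genes. ATHB2 (AT4G16780) stood at 6.36, 6.75 and 7.38 TPM at 5 min and at 288, 288 and 303 TPM at 30 min. That is 42.9 times the 5 min mean, with no overlap and little spread within either time (log2 change 5.23, SE 0.11, adjusted p = 6.09e-09). ATHB4 (AT2G44910) rose from 2.68, 2.26 and 2.64 TPM to 89.9, 95.9 and 92.7 TPM (log2 change 4.74, SE 0.15, adjusted p = 5.38e-08). HAT1 (AT4G17460) started higher, at 30.5, 29.7 and 28.1 TPM, and reached 223, 214 and 242 TPM (log2 change 2.90, adjusted p = 4.71e-08). Their relatives HAT3 (AT3G60390) and HAT2 (AT5G47370) rose from 15.9 ± 1.80 to 63.2 ± 0.643 TPM and from 18.6 ± 1.89 to 67.2 ± 1.90 TPM (SD, n = 3). All 5 HD-Zip II genes of the list were thus raised, each with groups that did not overlap.

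The HLH restrainers rose less far than ATHB2, ATHB4 and HAT1 on the log2 scale used here, and about as far as HAT3 and HAT2. HFR1 (AT1G02340), an atypical bHLH that binds PIFs, stood at 3.63, 4.64 and 5.32 TPM at 5 min and at 23.9, 20.1 and 23.9 TPM at 30 min (log2 change 2.1, SE 0.17, adjusted p = 8.75e-05). PIL1 (AT2G46970), a PIF-like gene used as a shade marker, stood near 0 at 5 min (0.16, 0.19 and 0.17 TPM) and at 2.84, 2.43 and 3.2 TPM at 30 min (log2 change 1.70, adjusted p = 1.13e-05). In linear terms its 30 min mean was 16.3 times the 5 min mean, a ratio that rests on a very low starting level. PAR1 (AT2G42870) rose from 6.56 ± 0.620 to 28.7 ± 3.16 TPM (log2 change 1.97). Its paralog PAR2 (AT3G58850) stood at 18.3 ± 3.5 and 32.4 ± 1.79 TPM and did not pass (log2 change 0.81, adjusted p = 0.0622). FLP1 (AT4G31380) rose from 1.88 ± 0.556 to 12.4 ± 2.18 TPM (log2 change 2.22, adjusted p = 7.65e-05). BBX25 (AT2G31380), a B-box factor, fell from 71.8 ± 4.50 to 49.6 ± 3.83 TPM (log2 change -0.53, adjusted p = 0.0305), a call that ended without any 1 of 5 libraries (all but the second at 30 min), with an adjusted p of up to 0.137. BBX24 (AT1G06040), its paralog, stood at 193 ± 15.0 and 153 ± 4.47 TPM (adjusted p = 0.0511).

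**Figure D2:**
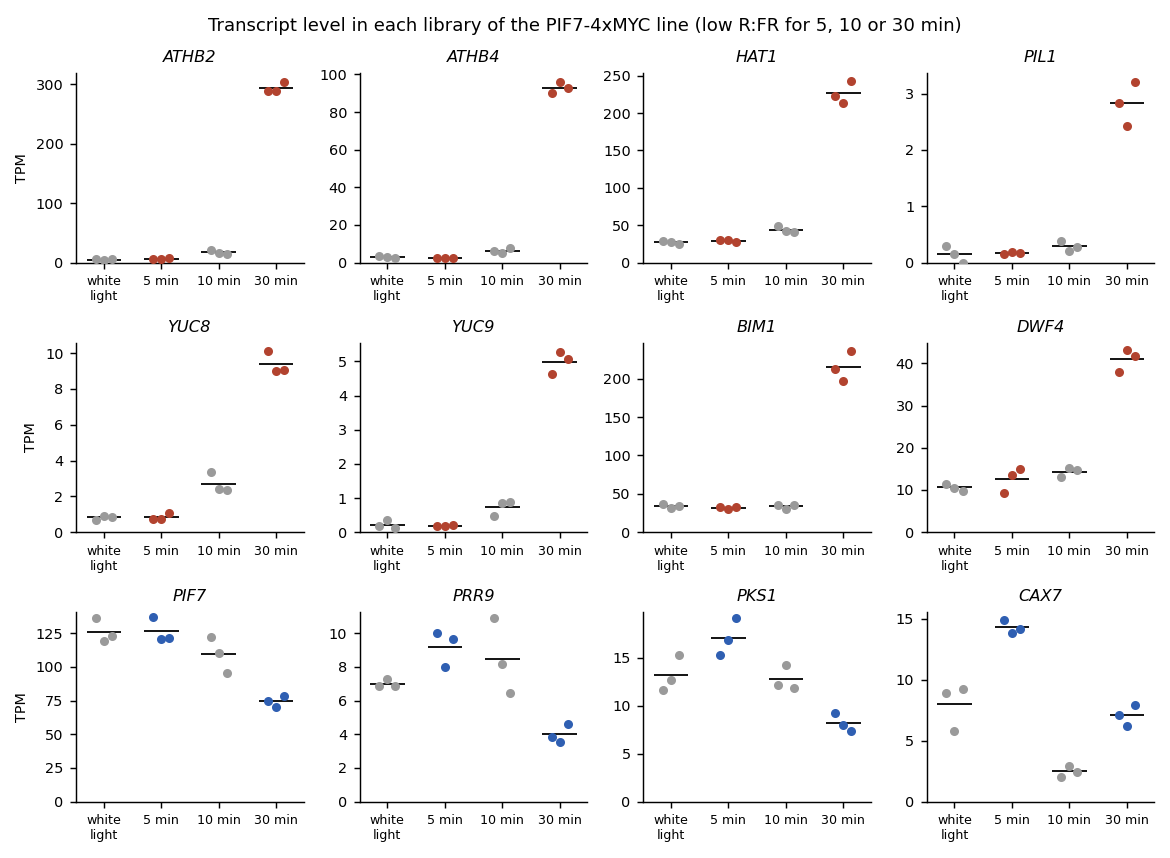
TPM of 12 genes in every library of the line (points) with the group mean (line); the 5 and 30 min groups are coloured, red for raised and blue for lowered genes, and white light and 10 min are grey. In the 8 raised genes the 30 min libraries stand apart from the other 9, whereas CAX7 is lowest at 10 min.

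Auxin synthesis genes rose at the step that makes indole-3-acetic acid. Of 11 tested genes of this list 5 were raised and 0 lowered (5 and 0 at an unadjusted p under 0.05), with a median log2 change of 0.27. The YUCCA flavin monooxygenases carry out that step, and 3 of them went from traces to a few TPM. YUC8 (AT4G28720) stood at 0.71, 0.72 and 1.05 TPM at 5 min and at 10.1, 8.99 and 9.08 TPM at 30 min (log2 change 2.51, SE 0.13, adjusted p = 2.96e-06). YUC9 (AT1G04180) went from 0.19, 0.19 and 0.20 TPM to 4.63, 5.29 and 5.06 TPM (log2 change 2.33, adjusted p = 1.26e-06). YUC5 (AT5G43890) went from 0.19, 0.51 and 0.27 TPM to 4.48, 4.27 and 4.85 TPM (log2 change 2.07, adjusted p = 6.52e-05). None of these overlapped between the times. YUC2 (AT4G13260, 2.23 ± 0.243 to 4.50 ± 0.279 TPM, log2 change 0.77, adjusted p = 0.025) and TAA1 (AT1G70560, the aminotransferase of the preceding step, 9.80 ± 0.809 to 14.1 ± 1.51 TPM, 0.48, adjusted p = 0.0345) rose by less. The YUC2 call ended without any 1 of the 6 libraries (adjusted p up to 0.108 over all alternatives), and the TAA1 call without the first or second at 5 min or the second or the third at 30 min, with median centring and in a fit of the 6 libraries alone (up to 0.145). YUC1, YUC3, YUC4, YUC6, YUC7 and TAR2 had log2 changes between -0.15 and 0.27, with libraries that overlapped.

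Auxin transport genes rose in smaller steps, with 3 of 11 raised and 0 lowered (8 and 0 at an unadjusted p under 0.05). AUX1 (AT2G38120), an auxin influx carrier, rose from 49.1, 52.0 and 49.8 TPM to 104, 98.3 and 103 TPM (log2 change 1.00, SE 0.06, adjusted p = 5.08e-06). PIN3 (AT1G70940), the efflux carrier that moves auxin sideways in the hypocotyl, rose from 69.6, 69.1 and 74.5 TPM to 144, 123 and 130 TPM (0.89, adjusted p = 8.49e-05). ABCB19 (AT3G28860), an efflux pump, rose from 51.4 ± 4.06 to 68.9 ± 3.91 TPM (0.42, adjusted p = 0.0164), and the call ended without the first or second library at 5 min or the first or the third at 30 min and in a fit of the 6 libraries alone (up to 0.083). Both AUX1 and PIN3 doubled or nearly so from levels that were already high.

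The early auxin response genes moved little. Of 28 Aux/IAA repressor genes 3 were raised and 0 lowered (9 and 2 at an unadjusted p under 0.05), at a median log2 change of 0.14. IAA29 (AT4G32280), an Aux/IAA known from shade responses, rose from 2.58, 3.48 and 3.72 TPM to 10.2, 11.3 and 11.3 TPM (1.49, adjusted p = 0.000694). IAA16 (AT3G04730) rose from 153 ± 5.58 to 247 ± 19.7 TPM (0.68) and IAA2 (AT3G23030) from 63.3 ± 3.86 to 111 ± 9.52 TPM (0.79). IAA19 (AT3G15540), often read as an auxin marker, stood at 1.06, 2.48 and 2.23 TPM at 5 min and at 3.49, 3.68 and 4.15 TPM at 30 min, and did not pass (0.74, adjusted p = 0.132). Among 7 auxin inactivation genes (GH3 conjugating enzymes and AT1G14130), 0 were called by limma in either direction (3 higher and 0 lower at an unadjusted p under 0.05). GH3.3 (AT2G23170) stood at 6.61 ± 0.348 and 7.45 ± 0.858 TPM (0.15, adjusted p = 0.689). For the 28 SAUR genes, small auxin-up RNAs of cell expansion, limma also made 0 calls (7 higher and 2 lower at an unadjusted p under 0.05) at a median of -0.05. Near-identical SAUR copies can share reads, so single members are uncertain. SAUR23 (AT5G18060) had the largest change, 1.87 ± 1.44 against 4.45 ± 1.28 TPM (1.04, adjusted p = 0.327), with 30 min libraries just above those at 5 min.

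Brassinosteroid genes held the second largest number of rises among the lists. Of 17 genes 8 were raised and 0 lowered (11 and 0 at an unadjusted p under 0.05), and all 17 log2 changes were above 0, with a median of 0.33. Median centring shifts all log2 changes by about -0.04, which exceeds the changes of SOB7 (0.02) and BES1 (0.01), and leaves a list median of 0.28. BIM1 (AT5G08130), a bHLH partner of the BES1 transcription factor, changed most. It stood at 32.2, 30.6 and 32.7 TPM at 5 min and at 212, 197 and 236 TPM at 30 min (log2 change 2.71, SE 0.08, adjusted p = 5.06e-08). Of the cytochrome P450 genes of hormone synthesis in the list, DWF4, BR6OX2, ROT3 and CPD rose, while BR6OX1 (0.23, adjusted p = 0.599) and CYP90D1 (0.32, adjusted p = 0.295) did not pass. DWF4 (AT3G50660), the rate-limiting C-22 hydroxylase, rose from 9.33, 13.6 and 14.9 TPM to 38.1, 43.2 and 41.9 TPM (1.65, adjusted p = 0.000129). BR6OX2 (AT3G30180), which makes brassinolide in the last step, rose from 12.3 ± 1.48 to 44.1 ± 8.10 TPM (1.75, adjusted p = 0.000333). ROT3 (AT4G36380) rose from 7.30 ± 0.506 to 15.3 ± 0.605 TPM (0.98) and CPD (AT5G05690) from 154 ± 17.9 to 249 ± 14.3 TPM (0.69, adjusted p = 0.0119, up to 0.0588 without the first or second library at 5 min or the first at 30 min). BRI1 (AT4G39400), the receptor kinase, rose from 58.8, 64.1 and 67.7 TPM to 103, 99.9 and 97.2 TPM (0.65, adjusted p = 0.00012). The response genes BEE1 (AT1G18400, 0.65) and BEE2 (AT4G36540, 0.53) were raised too, but each call ended without single libraries: any 1 of the 6 for BEE1 (adjusted p up to 0.132), and any but the second at 30 min for BEE2 (up to 0.0666). Both also ended in a fit of the 6 libraries alone. The transcription factor genes BZR1 (0.23) and BES1 (0.01) were not called.

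Gibberellin genes had 5 raised and 0 lowered of 19 (8 and 0 at an unadjusted p under 0.05), at a median log2 change of 0.25. Those raised were a receptor gene, 3 DELLA repressor genes and a synthesis gene. GID1A (AT3G05120), a gibberellin receptor, rose from 24.7, 24.6 and 27.0 TPM to 57.5, 53.2 and 63.4 TPM (1.16, adjusted p = 1.3e-05). GAI (AT1G14920) and RGA1 (AT2G01570), DELLA growth repressors that the hormone removes, rose from 23.6 ± 0.925 to 44.2 ± 4.96 TPM (0.88) and from 67.3 ± 0.467 to 92.3 ± 5.03 TPM (0.45, adjusted p = 0.00287). Another DELLA gene, RGL3 (AT5G17490, 3.81 ± 1.1 to 8.06 ± 0.712 TPM, adjusted p = 0.0449), lost its call without any 1 library except the first at 5 min, with a pseudocount of 0.1 and in a fit of the 6 libraries alone (up to 0.156). GA3OX1 (AT1G15550), which makes active gibberellin, rose from 1.47, 1.61 and 1.1 TPM to 5.96, 3.99 and 5.83 TPM (1.38, adjusted p = 0.00294). The GA20OX and GA2OX genes of the list, which make precursors or inactivate the hormone, had changes between -0.10 and 0.38 and were not called.

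Single members rose in other hormone and growth lists. PRE1 (AT5G39860), a growth-promoting HLH gene, rose from 3.71, 3.3 and 4.95 TPM to 15.5, 14.4 and 15.1 TPM (1.70, adjusted p = 0.00107) and was the 1 gene of 8 called in its list. CKX5 (AT1G75450), a cytokinin oxidase, rose from 0.263 ± 0.0833 to 1.05 ± 0.153 TPM (0.70, adjusted p = 0.000538), 1 of 17 cytokinin genes. ACS8 (AT4G37770), an ethylene precursor synthase, rose from 0.16 ± 0.030 to 1.26 ± 0.385 TPM (0.95, adjusted p = 0.00364), 1 of 17 ethylene genes. CBF1 (AT4G25490), a cold-response AP2 factor, rose from 0.14, 0.20 and 0.19 TPM to 2.86, 2.57 and 1.94 TPM (1.55, adjusted p = 6.98e-05). Its neighbours CBF2 (0.74, adjusted p = 0.0653) and CBF3 (0.98, adjusted p = 0.0503) did not pass, and neither did the COR, KIN and RD29A target genes of the list.

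Outside these lists the 15 largest rises included regulators of several kinds. WRKY22 (AT4G01250), a WRKY factor of defence and senescence, rose from 3.65, 3.76 and 2.85 TPM to 22.1, 14.7 and 20.4 TPM (2.17, adjusted p = 6.22e-05). JAZ3 (AT3G17860), a jasmonate repressor, rose from 10.9, 9.93 and 12.1 TPM to 55.0, 44.1 and 56.6 TPM (2.14, adjusted p = 3.86e-06). ERF4 (AT3G15210), an ethylene response factor that acts as a repressor, rose from 19.1, 17.7 and 15.3 TPM to 71.9, 74.8 and 80.7 TPM (2.07, adjusted p = 3.86e-06). The PP2C-type phosphatase gene AT5G66080 rose from 3.08 ± 0.749 to 19.8 ± 0.726 TPM (2.36). AT5G12050 rose from 11.9 ± 1.53 to 55.8 ± 7.74 TPM (2.14), AT5G54530 from 3.65 ± 0.280 to 19.1 ± 0.524 TPM (2.11), AT5G01790 from 12.2 ± 1.78 to 51.4 ± 0.687 TPM (2.00) and AT2G28400 from 2.14 ± 1.11 to 14.6 ± 3.13 TPM (2.36).

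Falls were smaller than rises. Among the 89 lowered genes AT5G22270 had the largest change, from 10.9, 8.60 and 9.19 TPM to 4.02, 1.83 and 2.12 TPM (log2 change -1.57, SE 0.21, adjusted p = 0.00325). MYB16 (AT5G15310), a MYB factor of epidermis and cuticle, fell from 26.8, 29.7 and 30.4 TPM to 12.2, 13.8 and 13.5 TPM (-1.08, adjusted p = 0.000465). PRR9 (AT2G46790), a morning pseudo-response regulator of the clock, fell from 9.99, 8.00 and 9.63 TPM to 3.86, 3.54 and 4.58 TPM (-1.03, adjusted p = 0.00806). PKS1 (AT2G02950), a phytochrome kinase substrate of phototropism, fell from 15.3, 16.9 and 19.1 TPM to 9.20, 8.02 and 7.31 TPM (-0.98, adjusted p = 0.0021). In these 4 genes the times did not overlap. FSD1 (AT4G25100), an iron superoxide dismutase gene, stood at 226, 204 and 235 TPM at 5 min and at 122, 114 and 117 TPM at 30 min (-0.91, adjusted p = 0.000466). Its white light level (152 ± 20.4 TPM, SD, n = 3) lay between the 2 times. XTH6 (AT5G65730), a xyloglucan endotransglucosylase gene, fell from 187, 178 and 193 TPM to 109, 114 and 102 TPM (-0.77, adjusted p = 0.00034). CIPK20 (AT5G45820), a protein kinase gene, fell from 41.5 ± 6.15 to 23.0 ± 1.98 TPM (-0.82, adjusted p = 0.0235), a call lost without the first or the third library of either time (up to 0.107).

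Most other groups held few or no called genes. For the 18 light-harvesting antenna genes limma made 0 calls (0 higher and 4 lower at an unadjusted p under 0.05), yet all 18 log2 changes were below 0, between -0.42 and -0.03, at a median of -0.23 (-0.27 with median centring). LHCB2.2 (AT2G05070) stood at 2540 ± 191 TPM at 5 min and 1990 ± 315 TPM at 30 min (adjusted p = 0.36). Antenna genes are near-identical within a subfamily, so they are not separate measurements. The clock list had PRR9 as its 1 lowered gene of 21 and 0 raised (1 higher and 6 lower at an unadjusted p under 0.05), at a median of -0.18. CCA1 (AT2G46830), the morning clock factor, stood at 65.1 ± 10.7 and 53.4 ± 2.88 TPM (-0.27, adjusted p = 0.603). Photomorphogenesis regulators had 0 calls of 15 (2 higher and 3 lower unadjusted), and HY5 (AT5G11260), their central bZIP factor, stood at 15.4 ± 2.13 and 15.0 ± 3.61 TPM with overlapping libraries. The list of 21 genes for loosening the cell wall included 1 that fell, XTH24, and 0 that rose (5 higher and 3 lower unadjusted). XTH6, lowered above, and EXPB3, a beta-expansin gene given below as raised, lie outside that list. XTH15 (AT4G14130) stood at 4.17 ± 0.271 and 7.14 ± 0.439 TPM (0.66, adjusted p = 0.0629). XTH15 passed when genes below a mean of 1 TPM were left out or in a fit of the 6 libraries alone (adjusted p down to 0.0268). In the flavonoid list limma made 0 calls of 11 (3 higher and 0 lower unadjusted, median 0.32), in the jasmonate list 0 of 19 (3 and 3), in the touch list 0 of 23 (0 and 3) and in the heat shock list 0 of 9 (0 and 0). The 14 genes of histone H2A.Z and its remodellers had 0 calls (0 and 0 unadjusted) and changes between -0.17 and 0.23.

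**Figure D3:**
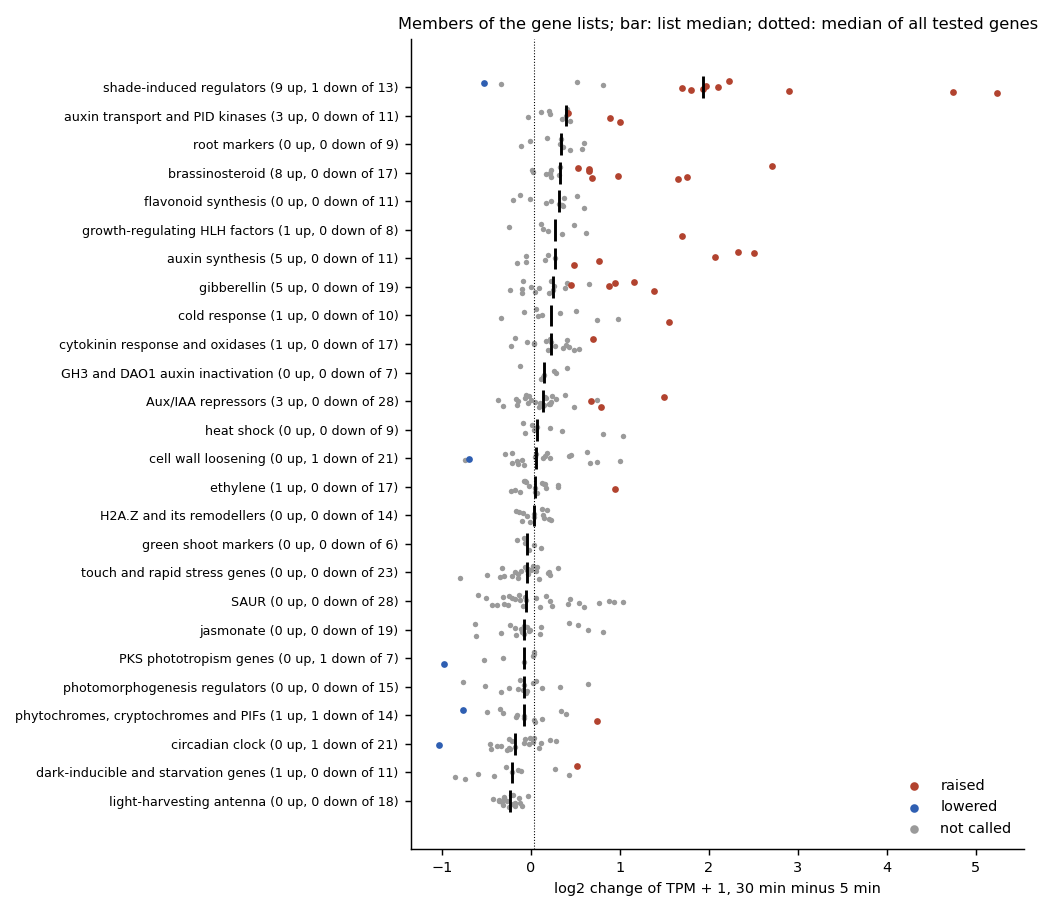
Log2 change at 30 min minus 5 min of each tested member of 26 gene lists (points, red raised, blue lowered, grey not called), with the list median (bar) and the median of all tested genes (dotted, 0.04). The shade regulators lie furthest right at a median of 1.93, and the 18 antenna genes all lie left of 0.

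Most of the rise came after 10 min. Over the 298 raised genes, the median gene had made 19.6% of its log2 change by 10 min, and over the 89 lowered genes 49.7%. ATHB2 stood at 21.0, 16.6 and 14.9 TPM at 10 min, above all 5 min libraries but at 23.5% of its log2 change. YUC8 had made 40.4% of its change by then, YUC5 55.1% and CKX5 79.2%. BIM1 (2.65%), AUX1 (1.29%) and HFR1 (6.93%) were still at or near the 5 min level. The 10 min mean lay between the other 2 in 198 raised genes, on the far side of 5 min in 81 and beyond 30 min in 19. All 3 libraries at 30 min exceeded all 3 in white light in 264 of the raised genes (88.6%, beside 15.6% of all genes tested). In 66 raised genes (22.1%, beside 8.72% of all) the 5 min libraries lay below all white light libraries, and 32 genes met both descriptions. Of the 89 lowered genes, 60 had 30 min libraries below all white light libraries (67.4%, beside 5.26%) and 44 had 5 min libraries above all of them (49.4%, beside 14.1%), with 15 in both. The choice of genes by the 30 against 5 min difference bears on all these shares.

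Some called genes did not run in 1 direction over the time points. CAX7 (AT5G17860), a cation exchanger gene, stood at 14.9, 13.8 and 14.2 TPM at 5 min, 2.05, 2.96 and 2.42 TPM at 10 min and 7.14, 6.17 and 7.94 TPM at 30 min (30 against 5 min -0.92, adjusted p = 0.0189). Its white light value was 7.99 ± 1.93 TPM, close to that at 30 min. The call ended without any 1 library except the third at 30 min (up to 0.0881). XTH24 (AT4G30270), a cell wall enzyme gene, stood at 243 ± 16.6, 74.3 ± 18.0 and 150 ± 10.0 TPM at the 3 times (-0.70, adjusted p = 0.042), and its call ended without any 1 of the 6 libraries (up to 0.168). TDT (AT5G47560), a tonoplast dicarboxylate transporter gene, stood at 171 ± 9.29, 83.0 ± 7.15 and 116 ± 8.05 TPM (-0.56, adjusted p = 0.00864). White light values were 125 ± 14.8 TPM for XTH24 and 113 ± 12.5 TPM for TDT. Both means were below those at 5 min and not above those at 30 min. TPD1 (AT4G24972) dipped and then rose, with 66.0 ± 5.38, 32.4 ± 4.50 and 123 ± 6.96 TPM (0.89, adjusted p = 0.00204). EXPB3 (AT4G28250), a beta-expansin gene, peaked at 10 min, with 22.2 ± 0.433, 46.0 ± 3.65 and 31.4 ± 2.02 TPM (0.48, adjusted p = 0.003). Its white light value was 36.1 ± 0.836 TPM, above those at 5 and 30 min. Over genes with a mean of at least 5 TPM, the 10 min libraries correlated with each other at 0.985 to 0.989. With the 5 and 30 min libraries they correlated at 0.944 to 0.975, and with the second white light library at 0.98 to 0.986. The part of this in the non-monotonic courses was not tested.

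PIF7 binding was set beside the raised and lowered genes from the authors' list of 1408 events (places where a peak caller put PIF7), made from ChIP of the same line after 30 min of low R:FR with an antibody to the MYC tag. An event was counted for a gene when it lay within 3000 bp of the gene or inside it. Of 296 raised protein-coding genes 226 (76.4%) had an event, of 87 lowered genes 7 (8.05%), and of all 22973 tested protein-coding genes 2206 (9.6%). These shares are descriptions with no test, and genes that lie next to each other can count the same event. With 1000 bp in place of 3000 bp the 3 shares were 57.1%, 4.6% and 5.17%, and with events of at least median strength 61.8%, 1.15% and 5.15%.

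The event caller gives most events a 6-base word, and 14 of the 1408 are listed with none. To show which sequence lies at the bound sites, the most frequent words in the list are:
G-box: CACGTG
PBE-box: CACATG
The capitals mark the whole word. CACGTG was the word of 984 of 1408 events (69.9%) and CACATG of 184 (13.1%). Of the 226 raised genes with an event, the strongest event nearby had CACGTG in 177 (78.3%) and CACATG in 24 (10.6%). Of all 2206 tested protein-coding genes with an event, the strongest event nearby had CACGTG in 1606 and CACATG in 271. For ATHB2 that event lay at position 9450468 on chromosome 4 (TAIR10) with the word CACGTG, a strength of 108 and a fold of 2.8 over control, all as the authors deposited them. ATHB4 had 2 events, the stronger at position 18521580 on chromosome 2 with CACGTG and a strength of 449. BIM1 had 3, the strongest at position 2612989 on chromosome 5 with CACGTG and a strength of 399. HAT2 had 3, the strongest at position 19218926 on chromosome 5 with CACATG. HAT3, PIN3 and BR6OX2 were raised with no event within 3000 bp.

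Genes with stronger or more events were raised more often. Of 20767 protein-coding genes with no event 70 were raised (0.337%). Among genes with an event, the share raised was 3.76%, 6.07%, 10.3% and 20.8% from the weakest to the strongest of 4 nearly equal groups, ordered by their strongest event. With 1 event nearby 6.94% of 1800 genes were raised, with 2 events 18.7% of 332, and with 3 or more 52.7% of 74, where the median log2 change was 0.58. The latter group includes BIM1, HFR1, HAT2, BRI1 and ERF4. Even in the strongest of these groups most of the 552 genes were not called raised.

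**Figure D4:**
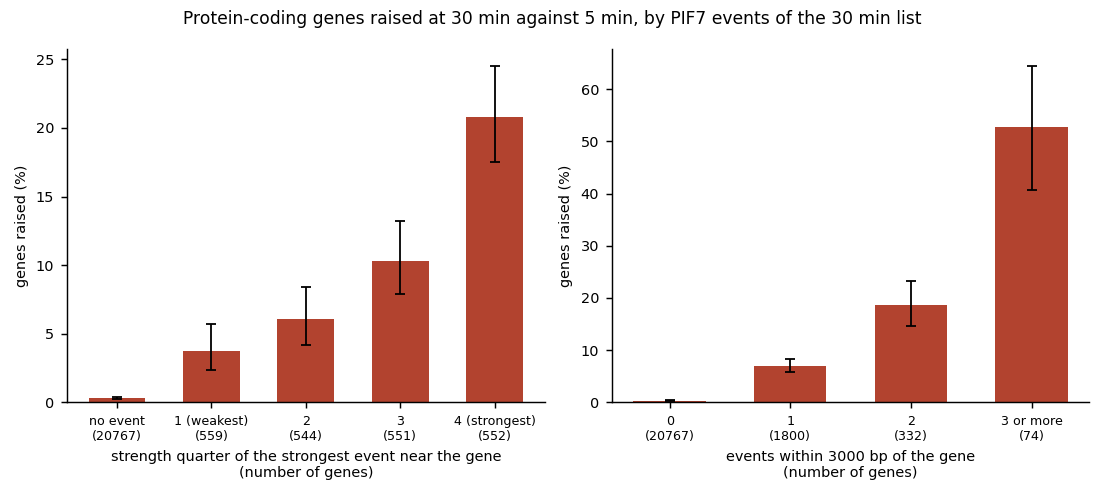
Share of tested protein-coding genes raised at 30 min against 5 min (bars, percent), by strength of the strongest PIF7 event within 3000 bp, in 4 groups (left) and by number of such events (right), with exact 95% binomial intervals that cover counting error only. The share runs from 0.337% with no event to 20.8% in the strongest group and 52.7% with 3 or more events.

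Wild-type and pif457 seedlings from the separate table give the same genes in libraries that share none with this comparison, but against white light, not 5 min. With 2 libraries a group, 29 genes were raised in wild type at 30 min (0.119% of 24384 tested) and 0 were lowered by limma (409 at an unadjusted p under 0.05). Both counts depend on the setting: 9 were raised and 14 or 10 lowered without the first or the second white light library, 2 and 1 were lowered without the first and the second 30 min library, and 486 were raised and 133 lowered when genes below a mean of 1 TPM were dropped. The change differed between wild type and pif457 in 10 genes (0.041%), of which 3 are raised and 1 is lowered here. Of these 29, 11 were raised here too (37.9%), which is 3.69% of the 298. They include ATHB2, ATHB4, HAT1, HAT3, HFR1, PIL1, YUC5, YUC9 and AT5G12050. Over the 298 raised genes the median log2 change in wild type was 0.28, beside 0.05 over all 23796 genes in both tables. In 169 of them (56.7%) both wild-type 30 min libraries lay above both white light libraries, beside 29.1% of all genes. In pif457 the corresponding figures were a median of -0.13 beside -0.14 and 25 genes (8.39%) beside 4.1%. The first pif457 30 min library held 23.1% rRNA and organellar transcripts, more than any other, and its part in these values was not tested. Over the 89 lowered genes the median was -0.18 in wild type, beside 0.05 over all genes, and -0.08 in pif457, beside -0.14. In 51 of them (57.3%) both wild-type 30 min libraries lay below both white light libraries, beside 12.6% of all genes. In pif457 this held for 24 genes (27.0%), beside 26.7%.

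ATHB4 stood at 3.48 and 3.63 TPM in wild-type white light and 87.1 and 77.2 TPM after 30 min, whereas pif457 had 5.02 and 5.72, then 3.89 and 6.22 TPM. ATHB2 went from 5.41 and 7.65 to 149 and 133 TPM in wild type, and from a mean of 4.01 to 17.9 TPM in pif457. BIM1 went from 27.2 and 23.9 to 70.1 and 66.1 TPM in wild type (log2 change 1.38, adjusted p = 0.0867), with 29.5 and 24.9, then 20.6 and 33.4 TPM in pif457. Other genes with large rises in the tagged line hardly differed in wild type. JAZ3 stood at 10.1 and 12.1, then 12.5 and 13.0 TPM there (0.19, adjusted p = 1.0), WRKY22 at 4.38 and 4.1, then 5.97 and 3.75 TPM (0.14, adjusted p = 1.0) and AT5G01790 at 15.8 and 11.6, then 16.9 and 13.9 TPM (0.17, adjusted p = 1.0). The difference between the tagged line and wild type was not tested, since the tables were scaled separately and start from different light. PIF7 transcript itself had a 30 min mean of 22.5 TPM in wild type, beside 74.3 TPM in the tagged line. The part of PIF7 level in these responses was not tested.

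**Figure D5:**
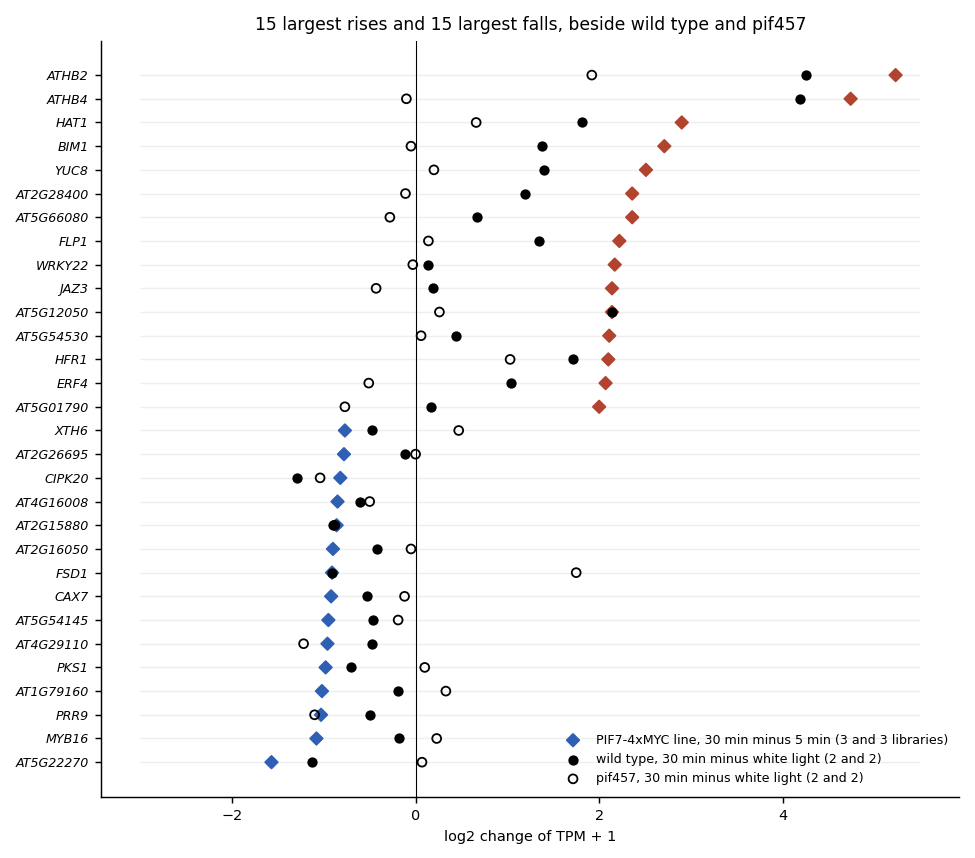
Log2 change of TPM + 1 for the 15 largest rises and 15 largest falls: diamonds show 30 min minus 5 min in the tagged line (red raised, blue lowered), filled circles wild type and open circles pif457, both 30 min minus white light in a separate table. Wild-type changes reach 4.25 in ATHB2 and 4.19 in ATHB4 but lie near 0 in JAZ3 and WRKY22.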

How the data were processed

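RNA of whole seedlings was sequenced, and values are the authors' deposited TPM for 33602 gene models. The submitters' processing notes name TAIR10 and the tools RSEM 1.3.0, STAR 2.6.0c and Bowtie2 2.1.0, with no role given. The deposited list of PIF7 events gives the authors' position, signal (strength), fold over control and -log10 q for each event; whether replicates were pooled is not given in the sources used here. Since TPM does not retain the number of reads, sequencing depth is unknown and count tests were not possible.

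Genes at 0 in all libraries of a table were left out. On log2(TPM + 1), that is with a pseudocount of 1, limma-trend (limma 3.58.1 under R 4.3.3) was run over all 12 libraries of the line, so that white light and 10 min libraries enter the estimate of spread only, and p-values were adjusted over 24589 genes. The procedure was tested on simulated data. Wild type was fitted the same way in its own table of 8 libraries. Same-numbered replicates were not taken as pairs.

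The 26 gene lists (388 genes, 384 tested), the comparison and the genes named were chosen with earlier results of these data known. Named genes are the 15 largest rises and 15 largest falls (mean of at least 5 TPM, no overlap), for each list the called members of smallest p (at most 5), 14 fixed genes, and up to 5 raised and 5 lowered genes whose 10 min mean lies furthest outside the other 2; not all are printed. Called list members beyond 5 were added after their values were seen. Symbols and the genes near an event were looked up in RefSeq's genes (TAIR10.1), which paired 32835 models and whose coordinates are not printed; event positions are TAIR10. Promoter windows and motif shares were planned and not run, since no sequence was used here. Alternatives were the pseudocount (0.1 or 5), a filter at a mean of 1 TPM, a 2-fold threshold, a fit of the 6 libraries, a replicate block, removal of rRNA and organellar genes, median centring, leaving out each library, and other event distances and strengths. Events were counted in Python 3.11.15 (pandas 2.3.3, numpy 2.4.6, scipy 1.17.1), and plots were drawn by matplotlib 3.10.9.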

Additional observations from a re-analysis of the deposited data

Results flagged for a closer look

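In 4 of the named genes the change from white light to 30 min differed between wild type and pif457, by a test of the difference itself in the separate table (limma interaction term, 2 libraries a group, 10 of 24384 genes called). ATHB4 differed by 4.29 on the log2 scale (wild type minus pif457, adjusted p = 0.00883), YUC9 by 3.93 (adjusted p = 0.00883) and YUC5 by 3.15 (adjusted p = 0.00883). YUC9 stood at 0.50 and 0.22, then 17.8 and 15.9 TPM in wild type, and at 0.41 and 0.19, then 0.24 and 0 TPM in pif457. YUC5 stood at 0.50 and 0.49, then 7.73 and 9.02 TPM in wild type, and at 0.46 and 0.88, then 0.14 and 0.20 TPM in pif457. FSD1, which fell in the tagged line, differed the other way, by -2.65 (adjusted p = 0.0327): it stood at 194 and 173, then 108 and 87.1 TPM in wild type, and at 130 and 126, then 358 and 521 TPM in pif457. The first pif457 30 min library is the one with 23.1% rRNA and organellar transcripts, and its part in these differences was not tested.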

How the results depend on the processing

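The 387 calls (298 raised, 89 lowered) moved with single libraries. Leaving out 1 library gave 245 to 376 calls, with 205 to 329 raised, 37 to 47 lowered and 87 to 99 of at least 2-fold. The lowest total came without the first library at 5 min (245, of which 236 are among the 387) and the next without the third at 30 min (254, of which 244 are). Median centring gave 150 lowered genes, and a pseudocount of 5 left 50 genes at 2-fold or more, since it shrinks low genes; with the 2-fold threshold 95 of the 387 remain. The replicate block gave 298 calls, 249 raised and 49 lowered. Correlations of same-numbered 5 and 30 min libraries (-0.0258, -0.0453 and -0.243) gave no sign of pairs. Of the genes named in the report, the block ended the calls of YUC2, TAA1, RGL3, BBX25, CIPK20, LNG1, TUB7, TUA2 and TUA4. Of 67 named genes called, 50 kept the call in every alternative and 17 lost it in at least 1. HY5, not called, changed sign without the first 5 min library (0.05) and without the second 30 min library (0.09), over a range from -0.23 to 0.09. The wild-type count of 29 was 13 with a pseudocount of 0.1, 619 (486 raised, 133 lowered) when genes below a mean of 1 TPM were dropped, and 19 with the replicate block. Without 1 wild-type library it was 19 to 35, with 9 to 34 raised and 1 to 14 lowered. The shares of raised and lowered genes near an event under both alternatives stand with the result (57.1% and 61.8%, 4.6% and 1.15%). The cause of these shifts was not tested. Genes under about 1 TPM, PIL1 and CKX5 among them, rest on few reads of unknown number.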

Other observations

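Other gene families among the calls were singled out after their values were seen and carry no test as families. Of the 4 homologs of BES1 and BZR1 named BEH, transcription factors of the brassinosteroid response, 3 were raised: BEH4 (AT1G78700, 16.5 ± 1.52 to 58.1 ± 1.26 TPM, log2 change 1.76), BEH2 (AT4G36780, 34.4 ± 2.26 to 76.4 ± 2.06 TPM, 1.13) and BEH1 (AT3G50750, 15.8 ± 1.80 to 27.6 ± 2.43 TPM, 0.77), while BEH3 stood at 7.53 ± 0.730 and 8.04 ± 1.11 TPM (SD, n = 3). Each raised BEH gene had at least 2 PIF7 events nearby, and BEH3 had 1. Of the 22973 tested protein-coding genes 332 had 2 events and 74 had 3 or more. Of the 296 raised ones these counts were 62 and 39. Of 18 ROTUNDIFOLIA-like peptide genes, which limit cell proliferation when overexpressed, 4 were raised, led by RTFL16 (AT3G25717, 44.2 ± 2.42 to 167 ± 6.04 TPM, 1.90, adjusted p = 2.07e-08) and RTFL17 (AT1G13245, 117 ± 11.1 to 260 ± 37.2 TPM, 1.14). Both LONGIFOLIA genes, which promote longitudinal cell growth, were raised: LNG2 (AT3G02170, 0.72) and LNG1 (AT5G15580, 0.66), the latter losing its call without any 1 of the 6 libraries (adjusted p up to 0.124).

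Of 15 tubulin genes 5 were raised and 0 lowered, at a median log2 change of 0.22, among them TUB8 (AT5G23860, 62.4 ± 1.63 to 113 ± 17.3 TPM, 0.84, adjusted p = 0.000635). TUB7 peaked at 10 min (80.8 ± 1.48, 146 ± 9.06 and 99.2 ± 5.36 TPM at the 3 times), and its white light value of 114 ± 4.76 TPM was above those at 5 and 30 min. Tubulin copies are much alike, so reads may be split between them, and the calls of TUA2, TUA4, TUA6 and TUB7 each ended without at least 3 of the 6 single libraries (adjusted p up to 0.148). Of 10 chaperone genes of the endoplasmic reticulum 5 were raised by small steps (log2 changes of 0.36 to 0.46), with BIP1 (AT5G28540) at 98.7 ± 7.93 and 136 ± 7.92 TPM, and all 5 calls ended without some single library (adjusted p up to 0.166). Single called genes picked out by eye were NCED3 (AT3G14440), an enzyme gene of abscisic acid synthesis, from 1.27 ± 0.203 to 6.07 ± 0.949 TPM (1.63, adjusted p = 0.000168) and AFP3 (AT3G29575) from 15.0 ± 3.00 to 42.6 ± 8.27 TPM (1.44, adjusted p = 0.00109).

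Some large changes were not called, and those given here were chosen after their values were seen. They include the seed storage protein genes CRU3 (AT4G28520, 2.92, adjusted p = 0.395) and CRA1 (AT5G44120, 2.16, adjusted p = 0.559). CRU3 stood at 1.46, 25.5 and 0.49 TPM at 5 min and at 12.6, 109 and 27.1 TPM at 30 min. CRA1 stood at 16.1, 85.1 and 5.01 TPM, then 21.2, 317 and 110 TPM. Both were highest in the second library in white light, at 5 min and at 30 min, and lowest in the second library at 10 min. PORA (AT5G54190), a protochlorophyllide oxidoreductase gene, stood at 0.59, 0.49 and 0.89 TPM, then 10.9, 0.93 and 9.37 TPM (1.91, adjusted p = 0.207), with the second 30 min library apart from the other two. The lowest log2 change of all genes tested was that of AT5G50580 (-2.26, adjusted p = 0.306), 1 of 2 genes listed as SAE1B: it stood at 5.97, 9.72 and 19.6 TPM at 5 min and at 2.89, 0.34 and 1.69 TPM at 30 min. The other, AT5G50680, stood at 33.1, 28.7 and 21.7 TPM, then 35.2, 39.3 and 40.4 TPM (0.46, adjusted p = 0.169). AT5G09670 had a change of -1.97 (adjusted p = 0.254).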
